A study of Mus musculus with 2 samples.

Results

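The genes described here encode 10 transcription factors that set and hold T cell identity and the naive, resting state: *Tcf7*, *Lef1*, *Bach2*, *Satb1*, *Id3*, *Ets1*, *Bcl11b*, *Runx1*, *Gata3* and *Tox*. The rule names them and uses no measured value, although the list was drawn up with earlier results of these data known. Each was read from the probe set of highest mean among those that carry only its symbol. Of the 10, 9 were measured, out of 19938 genes with such a probe set. No probe set carried *Tcf7* in the annotation used, so *Tcf7* was not analysed here.

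Both samples were CD3+CD4+ T cells sorted by FACS from the pancreatic lymph nodes (PLN) of BDC mice, a diabetes-prone NOD line whose T cells carry the transgenic receptor of a clone reactive to a β cell antigen. One sample came from mice given the nondepleting CD4 antibody YTS177 (ND αCD4) and the other from mice given the isotype control Ab 2A3, in both cases 48 hours before the cells were taken. According to the labels the mice were 8 weeks old and received 1 mg of antibody, and the methods state that PLN of 3 mice were pooled for the sort. For the dose the methods give ranges instead, higher for 2A3 than for YTS177. With 1 array for each condition there are no replicates, no test between conditions could be run, and precision is limited by this number.

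In T cells these factors form a layered network. TCF-1 (encoded by *Tcf7*) and LEF-1 are DNA-binding partners of β-catenin and of the Groucho (TLE) corepressors, and with GATA3 and BCL11B they commit progenitors to the T lineage. ETS1, RUNX1 and SATB1 keep T cell genes accessible and expressed. BACH2 and ID3 hold back effector differentiation, BACH2 by competing with AP-1 factors for DNA and ID3 by binding E proteins. Activation through the TCR is known to lower the expression of several of them, so their mRNA is commonly read as a measure of how close T cells are to the naive state.

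Several of these factors are known to act on each other's genes, and stretches of 4 of the genes are shown because they hold short words that such factors bind. They were chosen for holding a match. Start-site windows of 300 bases (250 before and 50 after the start) from RefSeq, mouse build GRCm38.p6, were found for 8 of the 10 genes, with 17 windows in all because some genes have several starts. In capitals are the letters CTTTGA for TCF-1/LEF-1, CGGAAG for Ets factors and TGTGGT for Runx factors, or their reverse complements, each searched on both strands.
Bach2, chr4:32417330-32417434, + strand, ending at the base before the start site: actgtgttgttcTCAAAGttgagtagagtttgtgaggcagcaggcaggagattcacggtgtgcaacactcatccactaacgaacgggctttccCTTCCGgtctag
Lef1, chr3:131156102-131156191, + strand, before an internal start site: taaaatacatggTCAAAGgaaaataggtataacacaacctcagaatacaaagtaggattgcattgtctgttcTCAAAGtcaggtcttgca
Bcl11b, chr12:108003486-108003515, - strand, before the start site: agaggccaagcaCTTTGAagaagtgtgaga
Runx1, chr16:92826026-92826055, - strand, after the upstream start site: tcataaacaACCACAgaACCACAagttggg
The *Bach2* stretch holds 1 TCF-1/LEF-1 match and 1 Ets match, the *Lef1* stretch 2 TCF-1/LEF-1 matches, the *Bcl11b* stretch 1 and the *Runx1* stretch 2 Runx matches. Of the 17 windows, 3 hold CTTTGA (*Bach2*, *Lef1* and *Bcl11b*), 3 hold CGGAAG (*Bach2*, *Tcf7* and *Satb1*) and 1 holds TGTGGT (*Runx1*). Such short words are common. CTTTGA is in 16% of all 32851 windows and in 12.2% of the 13197 windows of detected genes. CGGAAG is in 16.9% of all windows and in 28.4% of those of detected genes, and TGTGGT is in 16.8% of all windows and in 13.1% of those of detected genes. Also searched were AGATAA (for factors such as GATA3, 1 of 17 windows and 11.2% of all), CANNTG (E-box, 12 of 17 and 72.3%), TGCTGA (Bach and Maf factors, 3 of 17 and 19.5%) and GGGCGG (GC box, 8 of 17 and 35.7%). Some windows of a gene overlap, and nothing is read from these counts. The matches describe the letters of these windows only, and nothing was measured about binding.

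All 9 measured genes were expressed well above background in both samples. Probe sets of olfactory and vomeronasal receptors, which T cells should lack, set the background at their 95th percentile, 7.56 in the ND αCD4 array and 7.64 in the isotype control array on the log2 scale. The closest of the 9 to it, *Id3*, exceeded it by 2.73 in the ND αCD4 array and by 2.59 in the isotype control array. A gene is called detected here when it exceeded background in at least 1 array, as 13222 genes did. Each gene is read by its own probes, so signals were not compared between genes.

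**Figure D1:**
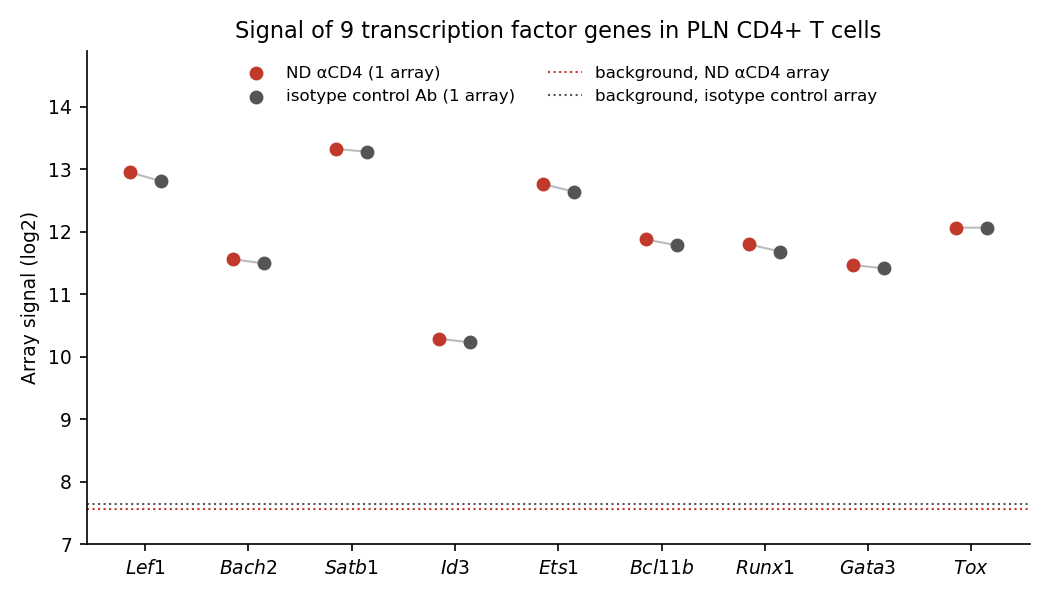
Array signal (log2, vertical axis) of the 9 measured genes in the ND αCD4 array (red) and in the isotype control array (gray), 1 array each, with dotted lines at the background level of each array. Both points of each gene lie close together, with the widest gap for Lef1 (12.96 after ND αCD4 and 12.81 after isotype control Ab) and the narrowest for Tox (12.07 in both arrays).

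After ND αCD4 the 9 measured factors stayed near their levels in control cells. The 9 log2 ratios (ND αCD4 minus isotype control) ran from 0.0004 to 0.14 with a median of 0.069, against a median of -0.010 over all detected genes. None of the 9 was at least 1.5-fold higher, a size that 0.212% of all detected genes reached, and none was at least 1.5-fold lower, which 1.01% reached. With the smaller size of 1.2-fold the counts among the 9 were still 0 in both directions, against 2.85% of all detected genes higher and 5.79% lower. A count of 0 among 9 genes is close to these background shares. All 9 log2 ratios were above 0, where 46.7% of all detected genes were, but *Tox* was so close to 0 that its sign changed when the arrays were centred on their medians (-0.0015). Of the 9, 4 (*Lef1*, *Ets1*, *Runx1* and *Bcl11b*) lay above the 75th percentile of all detected genes, a log2 ratio of 0.073, and none lay above the 95th, at 0.21.

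As there are no replicates, the only error that could be estimated was that between probes. Across 550 genes with exactly 2 detected probe sets, log2 ratios of probe sets of the same gene had an SD of 0.093. These probe sets were taken at any level above background, whereas 8 of the 9 factors were in the top quartile of mean signal. The same 4 genes exceeded this SD, *Bcl11b* by a very narrow margin, and none of the 9 exceeded 2 SD (0.19). Differences between mice, sorts and arrays come on top of it and were not measured. In sorted bulk samples, fewer cells of a type and less RNA per cell cannot be told apart.

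**Figure D2:**
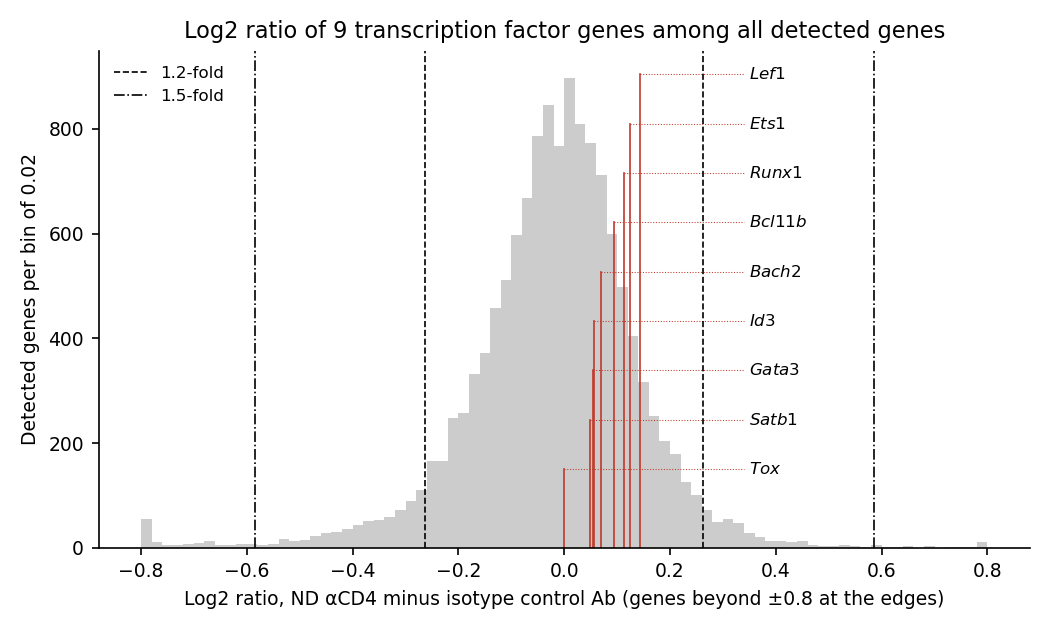
Histogram of the log2 ratio (horizontal axis, ND αCD4 minus isotype control Ab, 1 array each) of 13222 detected genes in bins of 0.02 (vertical axis, genes per bin), with the 9 listed factors as red lines and the 1.2-fold and 1.5-fold sizes as dashed and dash-dot lines. Line heights only separate the names, and all 9 lines lie between 0 and the 1.2-fold line on the right.

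*Lef1*, whose product binds DNA through an HMG box and keeps naive T cell genes expressed, had the highest log2 ratio of the 9. Its signal was 12.96 in the ND αCD4 array and 12.81 in the isotype control array, a 1.10-fold higher level (log2 ratio 0.14). Of all detected genes, 11.4% had a higher log2 ratio, and 10.3% of those in the same quartile of mean signal did. The only other detected gene of the Tcf and Lef family was *Tcf7l1*, near background at 8.09 after ND αCD4 and 8.03 in control cells (log2 ratio 0.055). *Tcf7l2* did not exceed background in either array.

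Among the proteins with which LEF-1 acts, *Ctnnb1*, which encodes β-catenin, had a log2 ratio of -0.060. The Groucho corepressor genes *Tle1* to *Tle5* were singled out after their values were seen. All 5 had log2 ratios above 0, as 46.7% of all detected genes did. They lay between 0.11 and 0.25, and the lowest and highest were those of *Tle4* and *Tle1*. *Tle5*, a short member of the family, had 13.30 in ND αCD4 cells and 13.17 in control cells, and *Tle3* had 11.63 in ND αCD4 cells and 11.52 in control cells. *Tle1* exceeded background only after ND αCD4 (7.84 against 7.59 in control cells), which gives at least a 1.15-fold higher level. None of the 5 reached 1.2-fold.

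*Ets1* and *Runx1* came next in size. *Ets1*, an Ets factor that supports survival of naive T cells and *Il7r* expression, had a signal of 12.77 after ND αCD4 and 12.64 after isotype control Ab, a 1.09-fold higher level (log2 ratio 0.12). *Runx1*, the Runx factor of naive CD4+ T cells, had 11.80 in the ND αCD4 array and 11.69 in the isotype control array, 1.08-fold higher (log2 ratio 0.11). Higher log2 ratios were found in 14.2% of all detected genes for *Ets1* and in 16.1% for *Runx1*.

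Other genes of the Ets family went both ways. *Fli1*, a close relative of *Ets1*, had 12.07 in ND αCD4 cells and 11.96 in control cells (log2 ratio 0.11), and *Elf4*, which restrains proliferation of CD8+ T cells, was at 0.16, or at 0.064 in its dimmer probe set. *Elf1* was at 0.052 and *Gabpa* at -0.034. *Ets2*, an effector of Ras and MAP kinase signals, was the lowest gene of all families considered, with 11.13 after ND αCD4 and 11.35 after isotype control Ab (log2 ratio -0.22). *Ets1* and *Ets2* differed in opposite directions, each by less than 1.2-fold.

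*Runx3*, the Runx factor of CD8+ and Th1 cells, had the highest log2 ratio of the other family genes, with 10.94 in the ND αCD4 array and 10.73 in the isotype control array (0.21). *Runx2* was not analysed here. Most of the other CD8 T cell marker genes also had log2 ratios above 0. Their list has 6 genes, *Runx3* included, all detected, of which 5 had log2 ratios above 0, against 46.7% of all detected genes. The log2 of the summed signal of the 6 was 13.48 after ND αCD4 and 13.22 after isotype control Ab. *Cd8a* had 10.39 in ND αCD4 cells and 9.67 in control cells, and *Cd8b1* had 11.83 in ND αCD4 cells and 11.38 in control cells. *Gzmk* went the other way (-0.13). *Klrd1* exceeded background only after ND αCD4 (8.19 against 7.34 in control cells), which gives at least a 1.46-fold higher level. The part of CD8+ T cells in the *Runx3* value was not tested. *Cbfb*, the partner subunit shared by all Runx factors, had a log2 ratio of -0.046.

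*Bcl11b* and *Satb1* encode nuclear proteins that shape T cell chromatin. *Bcl11b*, a zinc finger factor needed for T lineage commitment, had a signal of 11.88 in the ND αCD4 array and 11.78 in the isotype control array, 1.07-fold higher (log2 ratio 0.094). *Satb1*, a genome organizer of thymocytes and naive T cells, had 13.33 after ND αCD4 and 13.28 after isotype control Ab, 1.03-fold higher (0.049). Its log2 ratio was exceeded by 31.8% of all detected genes, and that of *Bcl11b* by 19.9%. *Bcl11a*, a relative of *Bcl11b* best known from B cells and red cell precursors, had 8.68 after ND αCD4 and 8.55 in control cells (0.13).

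*Bach2* and *Id3*, which restrain effector differentiation, were almost level. *Bach2* had 11.56 in the ND αCD4 array and 11.49 in the isotype control array, 1.05-fold higher (log2 ratio 0.069), and 26.1% of detected genes had a higher log2 ratio. *Id3* had 10.29 in ND αCD4 cells and 10.23 in control cells, 1.04-fold higher (0.056). *Bach1*, a repressor of heme and oxidative stress genes, had a larger log2 ratio than *Bach2*, with 9.995 after ND αCD4 and 9.80 in control cells (0.20), although the gap between both log2 ratios was within the spread between probe sets given below.

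*Id2*, the E protein inhibitor of effector cells, had 12.36 in the ND αCD4 array and 12.28 in the isotype control array (log2 ratio 0.076). *Id1* (0.024) and *Id4* (0.15) were near background. The E protein genes that Id proteins oppose, *Tcf3*, *Tcf4* and *Tcf12*, had log2 ratios of 0.10, 0.11 and 0.033, and they too were singled out after their values were seen. *Id3* is itself induced by TCR signals in developing and mature T cells. Its log2 ratio of 0.056 was smaller than the SD between probe sets (0.093), so its direction was not settled.

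*Gata3* and *Tox* are lineage factors that are also raised by TCR signals. *Gata3*, needed for CD4+ T cell development and the Th2 fate, had 11.47 after ND αCD4 and 11.42 after isotype control Ab, 1.04-fold higher (log2 ratio 0.054). *Tox*, an HMG box factor of CD4 lineage development and of exhausted T cells, had 12.07 in both arrays, and its log2 ratio of 0.0004 lay near the middle of all detected genes, with 46.5% higher and 53.4% lower. Of the GATA family, *Gata1* (0.047) and *Gata2* (-0.072) were near background, and *Zfpm1*, a cofactor of GATA proteins, was at 0.025.

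The related *Tox2* and *Tox4* had log2 ratios below 0. *Tox2*, an HMG box gene of follicular helper T cells, had 9.52 in ND αCD4 cells and 9.65 in control cells (-0.13), and *Tox4* had 10.37 in ND αCD4 cells and 10.42 in control cells (-0.044). *Tox3* did not exceed background in either array. All 6 detected genes of the 7 in the follicular helper marker list, *Tox2* included, had log2 ratios below 0. Among all detected genes 46.7% were above 0. The log2 of the summed signal of the list was 12.99 after ND αCD4 and 13.18 after isotype control Ab. The largest difference among the 6 was that of the costimulatory receptor gene *Icos*, with 11.45 in ND αCD4 cells and 11.72 in control cells (-0.27). The part of such cells in the *Tox2* value was not tested.

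**Figure D3:**
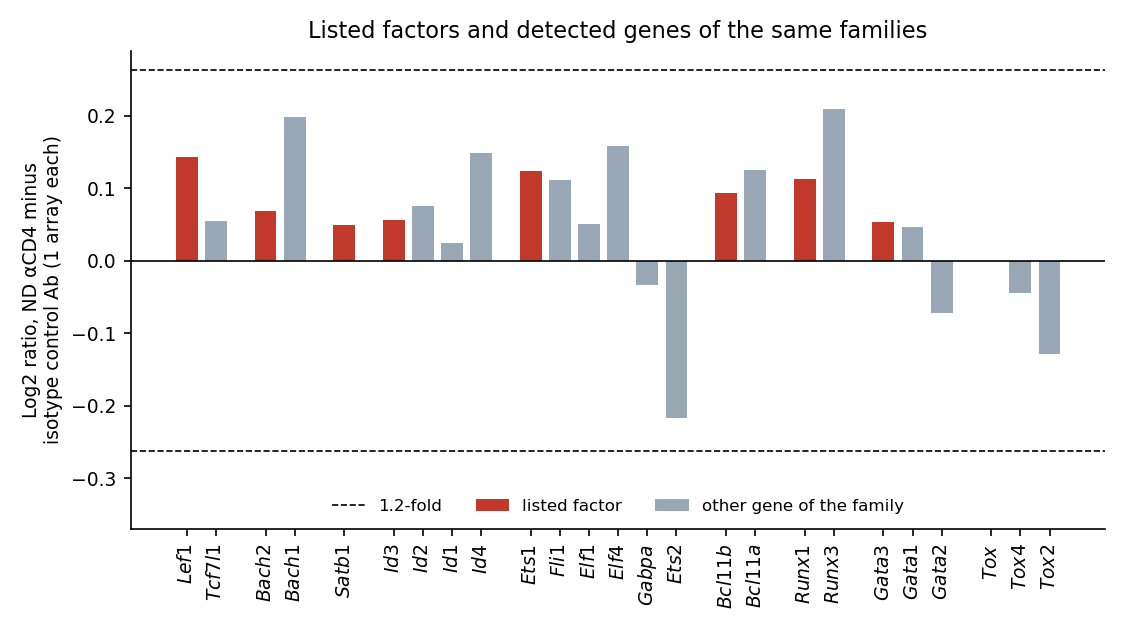
Log2 ratio (vertical axis, ND αCD4 minus isotype control Ab, 1 array each) of the 9 listed factors (red) and of the 16 detected genes of the same families (blue-gray), grouped by family, with dashed lines at 1.2-fold. No bar reaches 1.2-fold, Runx3 (0.21) and Ets2 (-0.22) reach farthest from 0, and Tox (0.0004) has no visible bar.

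Among themselves the 9 genes could hardly be ordered. The largest difference between any of the log2 ratios was 0.14, between *Lef1* and *Tox*, and of the 36 pairs of genes only this one differed by more than 0.13, the SD expected for the difference between probe sets. Neighbors in the order *Lef1*, *Ets1*, *Runx1*, *Bcl11b*, *Bach2*, *Id3*, *Gata3*, *Satb1* and *Tox* did not differ beyond that spread. Among the 16 other detected genes of the same families, 11 had a log2 ratio above 0 and 5 below 0, against 46.7% above 0 among all detected genes. Their median of 0.053 was close to the median of the 9, but their range of -0.22 to 0.21 was wider.

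The network around the factors was set beside them by lists put together with earlier results of these data known, and these counts are descriptions. Of 24 detected partners and cofactors, 17 had a log2 ratio above 0 and 7 below 0, with a median of 0.077. Among all detected genes 46.7% were above 0. None of the 24 reached 1.2-fold, a size at which 2.85% of all detected genes were higher and 5.79% lower. *Zbtb7a*, a zinc finger repressor, was the highest at 0.26 (9.77 after ND αCD4 and 9.51 after isotype control Ab), followed by *Tle1*. *Patz1*, which binds the Cd8 enhancers, was at 0.15. The histone deacetylase gene *Hdac2* was the lowest at -0.20 (11.14 in ND αCD4 cells and 11.33 in control cells).

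Genes of naive or developing T cells, listed as possible targets, were mixed. Above 0 were 12 of 19 detected genes and below 0 were 7, with a median of 0.064, where 46.7% of all detected genes were above 0. Only *Il7r*, the IL-7 receptor chain and a known target of ETS1, RUNX1 and Foxo1, was at least 1.5-fold higher (0.212% of all detected genes were). *Il7r* had 12.14 in the ND αCD4 array and 11.54 in the isotype control array. *Cd7*, a surface glycoprotein of T cells, had 11.32 after ND αCD4 and 10.83 in control cells (log2 ratio 0.49). *Igfbp4* was at 0.46 and *S1pr1* at 0.41. Of those below 0, *Il2rb* was at -0.27 and *Ccr9* at -0.24. The log2 ratio of *Il7r*, 0.61, stood beside 0.12 for *Ets1*, 0.11 for *Runx1* and 0.20 for *Foxo1*.

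Regulators of quiescence that act by other means than lineage identity had a higher median log2 ratio than the 9 factors. Of 19 detected genes, 17 were above 0 and 2 below 0, with a median of 0.12, where 46.7% of all detected genes were above 0. Among the 19, 4 were at least 1.2-fold higher, against 2.85% of all detected genes. The 4 were *Klf2* (0.50), the antiproliferative genes *Tob1* (0.44) and *Btg2* (0.27), and the PI3K inhibitor *Pik3ip1* (0.33). *Klf2*, a Foxo1 target that drives genes of T cell egress, had 11.58 after ND αCD4 and 11.08 after isotype control Ab.

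Transcription factors of activated and effector T cells had a median log2 ratio of -0.071, against -0.010 over all detected genes. Of 19 detected genes, 6 had a log2 ratio above 0 and 13 below 0, against 46.7% above 0 among all detected genes. At least 1.2-fold lower were 5 of them, against 5.79% of all detected genes. *Irf4*, induced in proportion to TCR signal, was the only one at least 1.5-fold lower (1.01% of all detected genes were). *Irf4* had 9.71 in ND αCD4 cells and 10.83 in control cells (-1.12). *Myc* had 11.68 in ND αCD4 cells and 11.99 in control cells (-0.31), *Eomes* was at -0.31 and *Ikzf2*, a factor of regulatory T cells, at -0.28. *Prdm1*, which encodes Blimp-1 and is repressed by BACH2, was near background at 8.15 after ND αCD4 and 7.91 in control cells (0.24).

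The markers of dividing cells differed most. All 19 detected genes of this list had log2 ratios below 0, while 46.7% of all detected genes were above 0. Of the 19, 17 were at least 1.5-fold lower (1.01% of all detected genes were). The log2 of the summed signal of the 19 was 13.99 in the ND αCD4 array and 14.75 in the isotype control array. General T cell markers did not move with them, with a median log2 ratio of -0.013 over 11 detected genes, 5 above and 6 below 0, and 13.48 for *Cd4* after ND αCD4 and 13.38 after isotype control Ab. Of other cell types, 5 of 7 measured B cell markers were detected, with a log2 summed signal of 11.32 after ND αCD4 and 11.22 in control cells. Detected too were 3 of 8 myeloid and 2 of 6 dendritic cell markers. The 3 myeloid genes were *Cd68* (9.40 after ND αCD4 and 9.17 in control cells), *Lyz2* (8.13 after ND αCD4 and 8.02 in control cells) and *Itgam*. *Itgam* exceeded background only in the ND αCD4 array (7.57 against 7.61 in control cells). Among those at background in both arrays were *Adgre1*, *Csf1r* and *Itgax*. The part of a different share of dividing cells in the log2 ratios of the 9 factors was not tested.

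**Figure D4:**
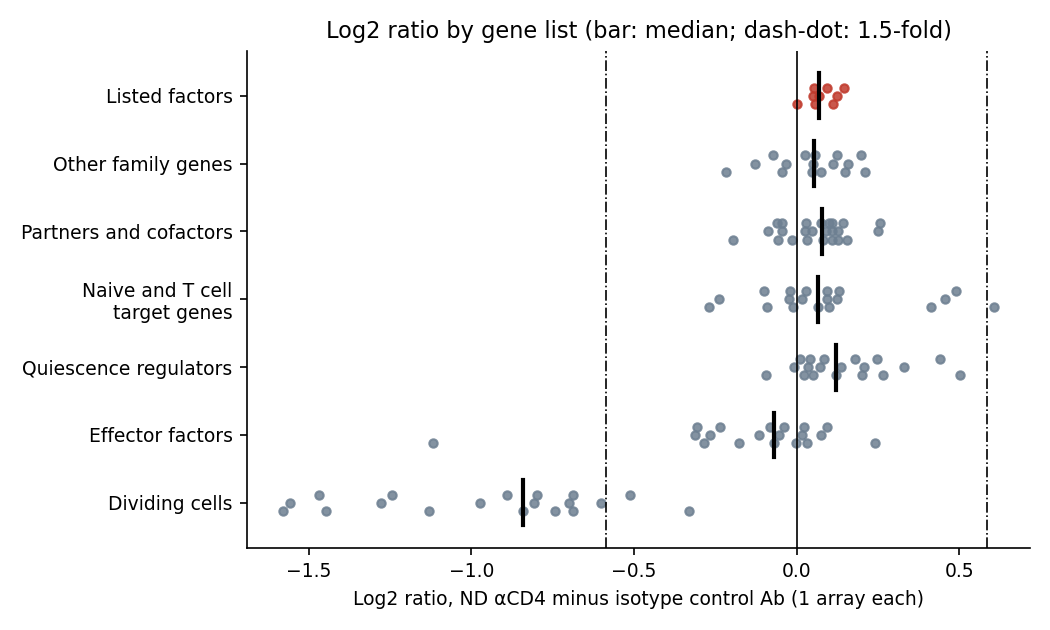
Log2 ratio (horizontal axis, ND αCD4 minus isotype control Ab, 1 array each) of the detected genes in 7 lists. Each point is a gene, black bars are medians, and dash-dot lines mark 1.5-fold. The 9 listed factors (red) sit between 0.0004 and 0.14, while the dividing cell genes run from -1.58 to -0.33. Points are spread vertically for legibility only.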

How the data were processed

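CD3+CD4+ T cells from PLN of BDC mice were measured on Affymetrix mouse gene arrays, 1 per condition. The table the authors deposited holds log2 values by probe set, made with Affymetrix Expression Console as the processing notes of the submitters say. Normalization and software version were not given in the sources used here. Nearly equal medians (8.15 in both arrays) and a range of 2.52 to 14.7 were taken to show the log2 scale.

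Probe sets with 1 symbol in the platform annotation (21789) were used, and those with several (1621) or none (12147) were left out. The probe set of highest mean stood for its gene. The 1210 probe sets of olfactory and vomeronasal receptors gave the background, their 95th percentile. *Tle1* and *Klrd1*, above it in 1 array only, were given as a bound against the background of the other array. *Itgam* was given by its signals alone. Fold changes came from unrounded log2 ratios, and summed signals were added on the linear scale. No test was run.

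The listed factors and gene lists were chosen with earlier results of these data known. Named are all listed factors, the detected genes of their families, up to 4 genes with the largest log2 ratios in size per other list, and defining markers. Chosen after their values were seen were the Tle and E protein genes, *Ctnnb1*, *Cbfb*, *Zfpm1*, *Prdm1*, *Foxo1*, *Il2rb*, *Ccr9* and *Gzmk*. The marker list of natural killer and innate cells had a median of -0.17 over 3 detected genes, or 0.012 with no filter. Those of immature and regulatory T cells had medians of 0.17 and -0.045 over 4 and 6 detected genes. The immature list ran from -0.068 to 1.24, the value of *Dntt* (8.88 after ND αCD4 and 7.65, barely above background, in control cells). The regulatory list ran from -0.59, the value of *Il2ra*, to 0.19. Alternatives were 3 other scalings, a floor at background, other probe sets, filters and sizes. The size rule and scalings were tested on simulated data. Software was Python 3.11.15 with pandas 2.3.3, numpy 2.4.6, matplotlib 3.10.9 and statsmodels 0.14.6.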

Additional observations from a re-analysis of the deposited data

How the results depend on the processing

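Under the 3 other scalings, the log2 ratios of the 9 factors each moved by less than the SD between probe sets (0.093), and none reached 1.2-fold. The floor, the other choices of probe set and the filters could not move them, since each has 1 probe set and exceeded background in both arrays. Their median lay between 0.067 and 0.084, and all 9 stayed above the median of all detected genes under each scaling. Above 0 were 9 of 9, except 8 of 9 when centred on the median, where *Tox* was at -0.0015. *Lef1* was lowest at 0.14 when centred and highest at 0.17 after quantile normalization. Ranking against genes in the same quartile of mean signal moved the shares by at most 1.07 percentage points. The detected genes past 1.5-fold numbered 28 higher and 133 lower, with 2 and 25 at a 2-fold rule and 377 and 765 at a 1.2-fold rule, which follows from the rule itself. Among other genes named or listed, *Cdkn1b* was 0.18 in its brightest probe set and 0.46 in its dimmest, and *Elf4* was 0.16 and 0.064. The median of the natural killer and innate markers turned to 0.012 with no filter, against -0.17, and that of the CD8 T cell markers was 0.21 over genes detected in both arrays, against 0.33. No paired analysis was possible because each condition has 1 array.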
